A study of Sus scrofa with 15 samples.

Results

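The genes described here encode proteins of the cytoplasmic ribosome. They were chosen by symbol as the rows named RPSA, RPLP0, RPLP1 or RPLP2, or starting with RPL or RPS and a digit, without the RPS6K kinases and without names ending in L, L1 or P and a number. This gave 53 genes of 30476 in the table, of which 31 belong to the large subunit and 22 to the small subunit. The members are not the full set of these proteins: RPL19, RPL39, RPS10, RPS19 and RPS26, among others, are not in it. Another 15 rows with RPL or RPS names were left out by the rule, 9 of them RPS6K kinases and 6 ending in L or L1. The expression was measured by mRNA sequencing of testes from male piglets (Dutch Landrace Duroc in the labels) on postnatal day (PND) 21, with 3 libraries in each of 5 diet groups. All piglets suckled at first, and then from day 2 were fed from a bowl: Sow received sow milk bought commercially, Milk a formula based on cow's milk, Soy a soy-based formula, and the other two groups that same cow's milk formula with a supplement. The supplement of M + E2 was 17-beta-estradiol (2 mg/kg/d), and that of M + G was genistein (84 mg/L of diet). The labels do not tie the libraries to litters, and the 3 libraries of a group are taken as 3 piglets. Estradiol was the positive control for estrogen action, and the comparisons ask how formula and each supplement differ from sow milk and from the milk formula.

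The ribosome joins a small subunit, which reads the mRNA, to a large subunit, which forms peptide bonds and lets the new chain leave through a tunnel. Each ribosomal protein is needed in about equal amount, and many of their mRNAs share a pyrimidine tract at the 5′ end through which the growth pathway of the kinase mTOR controls their translation. In growing tissues, including the young testis, these transcripts are among the most abundant. No table with their sequences was at hand, so none is printed.

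The libraries held from 6097552 to 9488579 reads on genes. In the column names 1 library of Sow and 1 of Soy carry no number, and they are called Sow unnumbered and Soy unnumbered. The study left out Sow 2 for its low correlation with other libraries. The comparisons here did the same, so Sow has 2 libraries in them, and the values of Sow 2 are given apart. Leydig and Sertoli markers were found in every library, with summed levels of at least 10337 and 1224 CPM, so the defining cells of testis were present. CPM is a gene's share of the reads of a library times 1000000, with library sizes scaled by TMM. All 53 members passed the filter on low counts through which 15634 genes entered the test, and no member had fewer than 123 reads in any library, so counting error was small beside the spread between piglets.

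Reads on the members made up 2.75 to 9.34% of the reads on genes, a 3.39-fold range. Their share was 7.03% in Sow unnumbered and 6.33% in Sow 3, with 9.34% in Sow 2. In Milk it was 5.79, 6.48 and 2.88% in libraries 1, 2 and 3. Both high Milk libraries lay near Sow, and Milk 3 was below them. In Soy the share was 6.24% in the unnumbered library, 3.14% in Soy 2 and 2.75% in Soy 3, so here 1 library was high and the other two low. M + E2 had 3.25, 3.81 and 5.0%, and M + G had 3.26, 4.63 and 3.36%. Every library of M + E2 and M + G was below every Sow library, Soy unnumbered was just below Sow 3, and Milk 2 was above it. The group means were 6.68% ± 0.50 (SD, n = 2) in Sow, 5.05% ± 1.91 (n = 3) in Milk, 4.04% ± 1.91 (n = 3) in Soy, 4.02% ± 0.89 (n = 3) in M + E2 and 3.75% ± 0.76 (n = 3) in M + G. With Sow 2 the mean of Sow was 7.57% ± 1.58 (n = 3). Each mean differed from the next in this order by less than the larger SD of the pair.

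**Figure D1:**
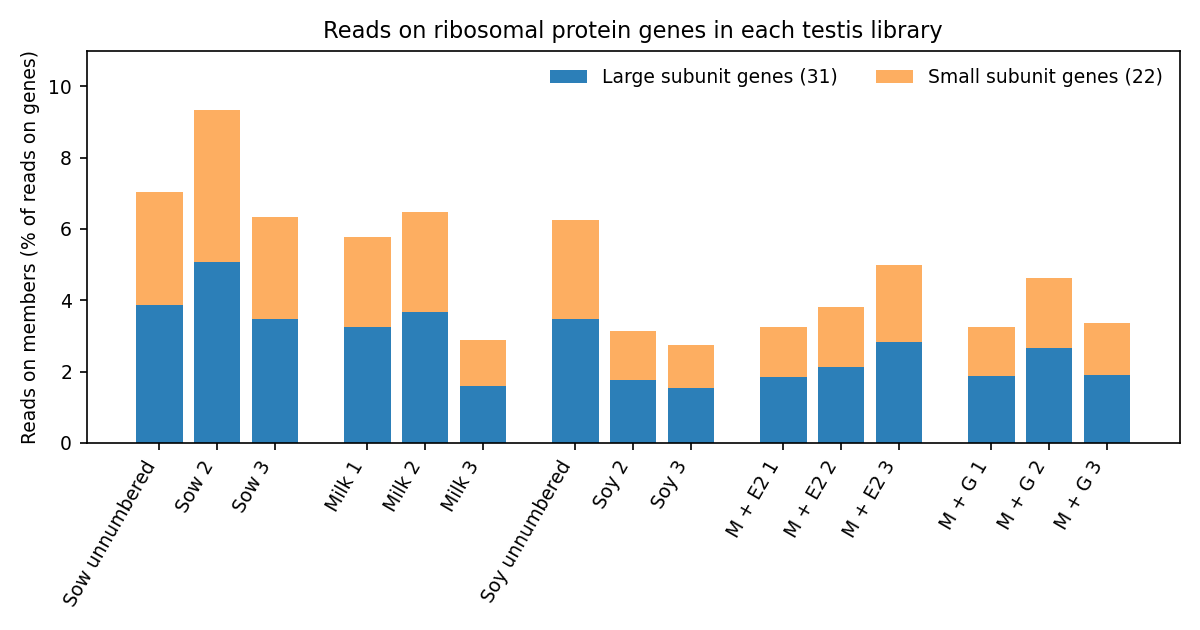
Bars show the percent of all reads on genes that fell on ribosomal protein genes in each of the 15 libraries, split into large subunit (blue) and small subunit (orange). Sow libraries stand at 6.33 to 9.34%, M + E2 and M + G libraries at 3.25 to 5.0%, and Milk and Soy each hold high and low libraries.

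The members moved together from library to library. After each member's log2 CPM was centred on its own mean, 1 shift per library, shared by all 53 members, carried 90.0% of their sum of squares over the 15 libraries (89.1% without Sow 2). The first principal component carried 96.2% of it (94.6% without Sow 2), against 43.7% (34.7%) over all 15328 genes of that fit. These shares describe the libraries and were not tested. In Soy all 53 members were highest in the unnumbered library, in Milk all 53 were lowest in Milk 3, and in M + G all 53 were highest in M + G 2. In M + E2, 48 were highest in library 3 and 46 lowest in library 1. In Sow, 52 of 53 were highest in Sow 2. Of the sum of squares of the members' median log2 CPM, 41.8% lay between diets without Sow 2 and 54.9% with it, and the rest lay between piglets on the same diet.

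**Figure D2:**
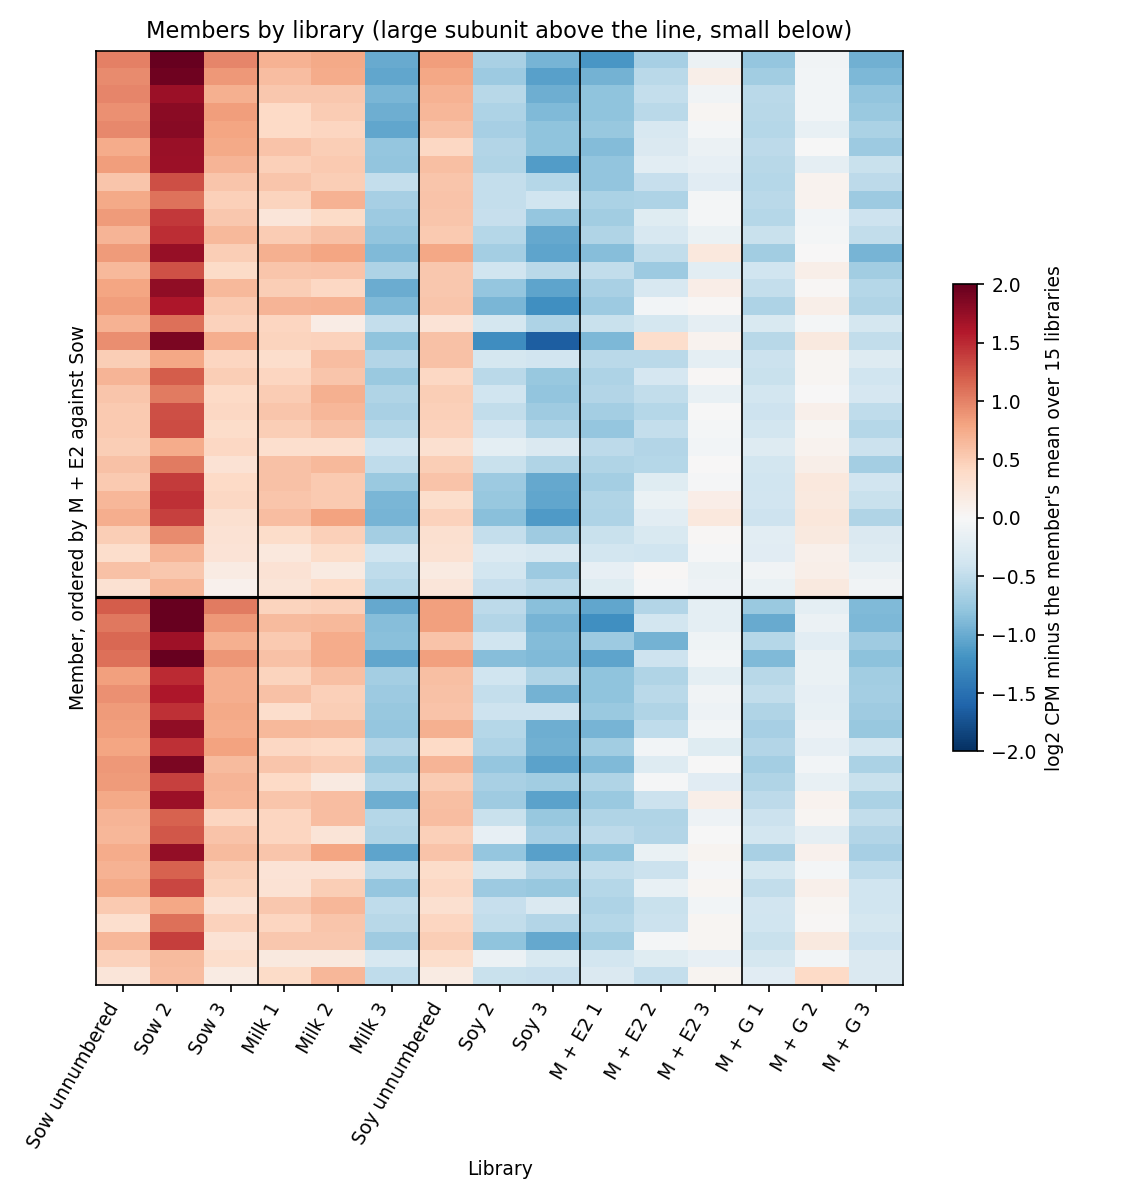
Colours give log2 CPM minus the member's mean over 15 libraries, limited to 2 in each direction, with 1 row per member and 1 column per library. Whole columns share a colour: Sow libraries, Milk 1, Milk 2 and Soy unnumbered are red and Milk 3, Soy 2, Soy 3, M + E2 1, M + G 1 and M + G 3 are blue, for both subunits.

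In M + E2 against Sow, each of the 53 members had a lower fitted level, with a median log2 fold change of −1.04 (quartiles −1.20 and −0.89), which is 2.05-fold lower. Over all genes tested 49.5% were lower and the median was 0.01. Of the members, 2 passed an adjusted p of 0.05 or less together with a change of at least 2-fold, the rule used for calls, and both fell: RPS15A and RPS20, proteins of the small subunit. This is 2 of 53, against 5.0% of all genes tested, and adjusted p alone gave the same 2, against 7.97% of all genes. At an unadjusted p below 0.05 there were 38 of 53 members, against 33.8% of all genes. In all 53 every M + E2 library was below both Sow libraries, as in 28.6% of all genes. Standard errors near 0.41 (the median over members) came from a spread shared by all 5 groups, and among the members not called the adjusted p reached 0.37.

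RPS15A, on chromosome 3 (26776661 to 26783491, Sscrofa11.1), sits on the small subunit's body. It had 855 and 762 CPM in Sow (1524 in Sow 2), and 180, 246 and 325 CPM in M + E2. The M + G libraries had 221, 324 and 201 CPM, Milk had 504, 517 and 182 CPM, and Soy had 653 (unnumbered), 257 and 208 CPM. No library of any formula group reached the Sow libraries. Its log2 fold change was −1.76 (SE 0.49, edgeR's quasi-likelihood test, adjusted p = 0.047) in M + E2 and −1.74 (SE 0.49, adjusted p = 0.12) in M + G.

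RPS20, on chromosome 4 (75762209 to 75763449), belongs to the head of the small subunit. It had 1051 and 988 CPM in Sow (1598 in Sow 2) and 349, 384 and 544 CPM in M + E2. Its levels in M + G were 386, 524 and 357 CPM, in Milk 746, 823 and 344 CPM, and in Soy 864 (unnumbered), 439 and 440 CPM. Here too the formula libraries all lay below Sow. The log2 fold change in M + E2 was −1.33 (SE 0.38, adjusted p = 0.050, edgeR's quasi-likelihood test), at the edge of the rule. Both calls were lost without any 1 of the M + E2 libraries, where adjusted p ran from 0.068 to 0.14, and without M + G 1, M + G 2, M + G 3 or Soy 2, which are in neither group compared (0.055 to 0.066). RPS20 was also lost without Milk 1 and with DESeq2 size factors (0.050 and 0.053). The number of members called differed widely between fits. It was 28 in a fit of only the 2 groups (12.3% of all genes), 37 with all 3 Sow libraries (18.1% of all genes), where the level of Sow also changed, and 23 without Milk 3 (9.81% of all genes). DESeq2's Wald test called 22 (8.50% of all genes).

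Some members that were not called had a larger fitted change than RPS20. RPL35A, a large subunit protein, had 326 and 319 CPM in Sow and 72.3, 103 and 150 CPM in M + E2 (log2 fold change −1.64, SE 0.55, adjusted p = 0.066). RPS21, a small protein of the small subunit, had 1291 and 1132 CPM in Sow and 267, 486 and 547 CPM in M + E2 (−1.55, SE 0.53, adjusted p = 0.070). The groups did not overlap in either, but neither passed the test. At the other end, RPL37 had 752 and 643 CPM in Sow and 516, 595 and 567 CPM in M + E2 (−0.39, SE 0.30). RPS6, the main target of the S6 kinases, had 623 and 591 CPM in Sow and 431, 377 and 547 CPM in M + E2 (−0.49, SE 0.34). RPL29 had a value of −0.55 (SE 0.28). These 3 were thus lower by less than their neighbours, at adjusted p of 0.37, 0.31 and 0.18.

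**Figure D3:**
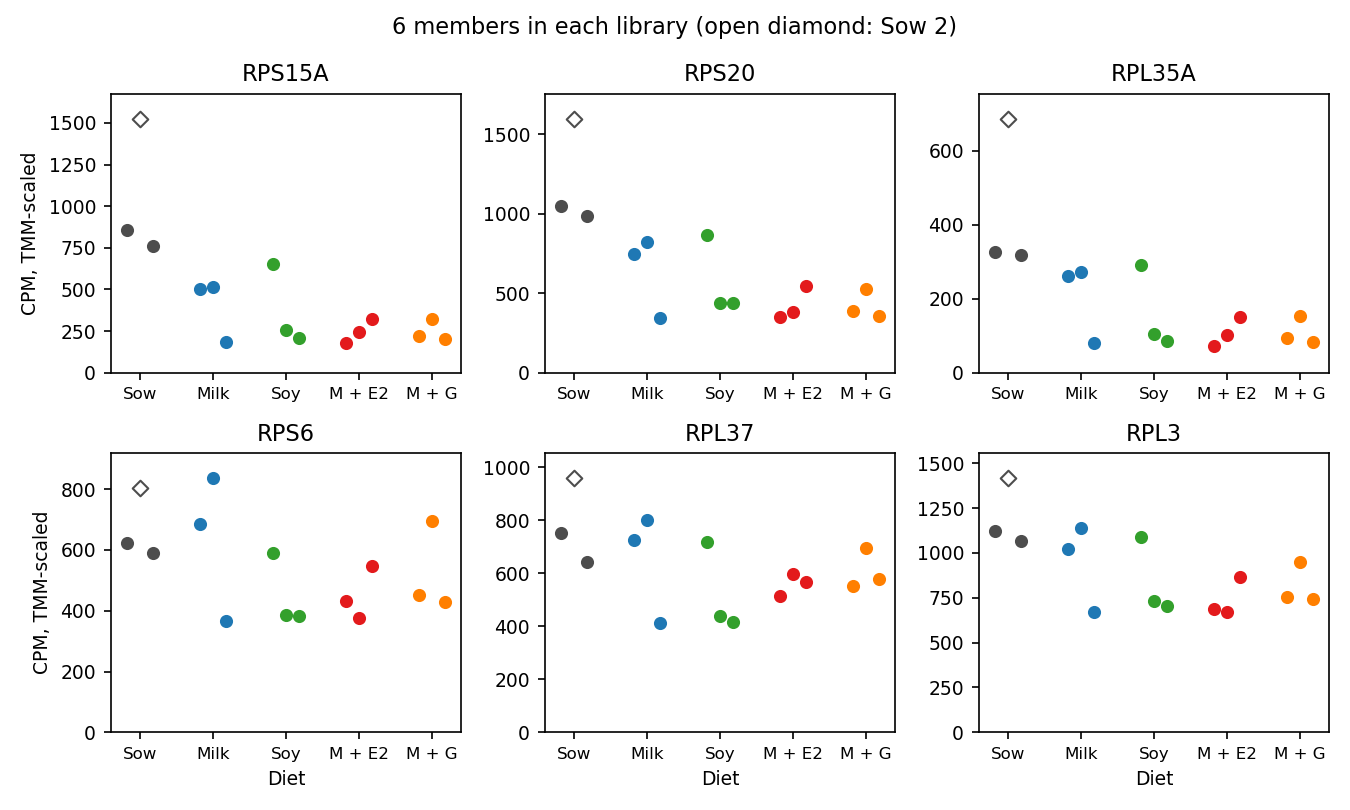
Each panel shows 1 member, with a point per library (TMM-scaled CPM, axis from 0) in the 5 diet groups and Sow 2 as an open diamond. RPS15A, RPS20 and RPL35A are well apart between Sow and both supplemented groups, while RPS6, RPL37 and RPL3 span a narrow range of 2.12- to 2.33-fold over all 15 libraries.

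M + G against Sow gave a similar set of values. The median of the members was −1.02 (quartiles −1.22 and −0.75), all 53 were lower, and in 51 every M + G library was below both Sow libraries, as in 26.4% of all genes. None of the 53 was called (edgeR's quasi-likelihood test, lowest adjusted p = 0.12), against 0.0576% of all genes, and 31 had an unadjusted p below 0.05, against 23.6% of all genes. DESeq2's Wald test called 7, against 2.11% of all genes. The largest differences were in RPS15A, RPS21 (−1.61, SE 0.53) and RPS16 (−1.60, SE 0.56), 3 proteins of the small subunit. The smallest were again in RPL37 (−0.23, SE 0.30), RPS6 (−0.25, SE 0.34) and RPL29 (−0.46, SE 0.28). All comparisons with Sow share its 2 libraries, so their likeness is not independent. The fit called 32 members with all 3 Sow libraries (10.3% of all genes) and 25 when only the 2 groups were fitted (5.38%).

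In Soy against Sow the median was −0.82 and all 53 members were lower. Of these, 31 had every Soy library below both Sow libraries, as in 18.9% of all genes. The fit called 0 members (edgeR's quasi-likelihood test, lowest adjusted p = 0.32), against 0.0128% of all genes, with 11 at an unadjusted p below 0.05 (15.0% of all genes) and 0 by DESeq2's Wald test (0.211% of all genes). RPL10A (−1.26, SE 0.57), RPS15A (−1.13, SE 0.49) and RPS13 (−1.07, SE 0.38) had the largest differences. RPL10A shows the form of this group, with 123 and 108 CPM in Sow but 97.8 (Soy unnumbered), 27.3 and 20.6 CPM in Soy. Without Soy unnumbered the median of the members was −1.36, and without Soy 3 it was −0.60. With Sow 2 in place of Sow 3 it was −1.30. RPL3 (−0.39) and RPL37 (−0.42) were at the small end.

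Milk against Sow had the smallest median of the 4 formula diets, −0.48. Of the members 52 were lower, the other being RPS6 at 0.01 (SE 0.34), with 687, 835 and 368 CPM in Milk. In 28 members every Milk library was below both Sow libraries, as in 15.3% of all genes. No member was called (edgeR's quasi-likelihood test, lowest adjusted p = 0.41), against 0.0192% of all genes; at an unadjusted p below 0.05 there were also 0 (12.1% of all genes), and DESeq2's Wald test gave 0 (0.205% of all genes). RPS15A (−1.05, SE 0.49), RPL23A (−0.85, SE 0.45) and RPL7 (−0.80, SE 0.48) were lowest, and RPS9 (−0.14) and RPL37 (−0.16) were nearest 0 after RPS6. The median was −0.18 without Milk 3, −0.66 without Milk 1 and −0.65 without Milk 2, and −0.92 and −0.89 with Sow 2 in place of Sow 3 and Sow unnumbered.

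**Figure D4:**
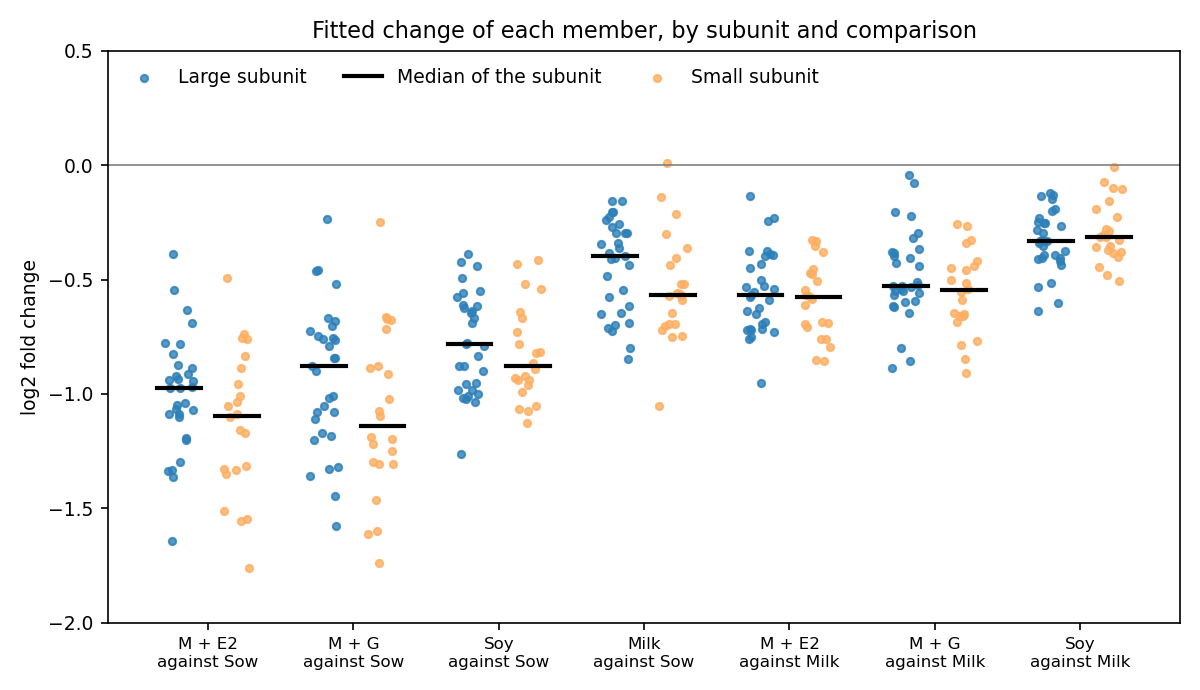
Points are the fitted log2 fold changes of the 31 large subunit (blue) and 22 small subunit (orange) members in 7 comparisons, and black lines are the medians of each subunit. Against Sow the medians lie between −0.40 and −1.14, and against Milk between −0.31 and −0.58, where the subunit medians nearly coincide.

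Against the milk formula itself the members were lower in all 3 comparisons but none was called. The median was −0.57 for M + E2, −0.53 for M + G and −0.33 for Soy, and each comparison had all 53 members below 0. The share of genes called was 0% over the whole table as well, and at an unadjusted p below 0.05 there were 2, 0 and 0 members, against 17.7, 2.60 and 2.44% of all genes (edgeR's quasi-likelihood test). DESeq2's Wald test called 0 members in each, against 0.780, 0.0128 and 0.0384% of all genes. The groups overlapped in every member in all 3 comparisons. Milk 3, at 2.88% of reads on members, lay below all 6 supplemented libraries in that share. RPL35A (−0.95, SE 0.50), RPS23 (−0.85, SE 0.42) and RPS21 (−0.85, SE 0.48) differed most in M + E2, and RPS21 (−0.91), RPL35A (−0.89) and RPL34 (−0.86) in M + G. In Soy these were RPL26 (−0.64), RPL35 (−0.60) and RPL10A (−0.53). Nearest 0 were RPL29 and RPL37 in both supplemented groups. Without Milk 3 the median of M + E2 against Milk was −0.91 and 5 members were called (8.04% of all genes), among them RPL21, RPL37A, RPLP2 and RPS23. Without Milk 3 the median of M + G was −0.83, and without Milk 1 and Milk 2 it was −0.36 and −0.33. The median of Soy was −0.82 without Soy unnumbered, −0.64 without Milk 3, −0.15 without Soy 2 or Milk 1, −0.14 without Milk 2 and −0.09 without Soy 3. In the test for any difference among the 5 diets, 0 members passed an adjusted p of 0.05 (lowest 0.22, for RPS15A), against 0.0640% of all genes, and 12 had an unadjusted p below 0.05, against 18.1% of all genes. DESeq2's likelihood ratio test called 2 members there, against 6.81% of all genes, and 4 were called with all 3 Sow libraries, against 7.62%.

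Among the 53 members the balance of the subunits was far steadier than their level. Large subunit genes took 54.4 to 57.5% of the reads on members, a 1.06-fold range over the 15 libraries. The share was 55.0 and 54.8% in Sow (54.4% in Sow 2), 56.3, 56.7 and 55.6% in Milk, 55.7 (unnumbered), 55.9 and 56.4% in Soy, 57.2, 55.8 and 56.7% in M + E2 and 57.5, 57.5 and 56.9% in M + G. All Sow libraries were below all 12 formula libraries, and no other pair of groups was apart except Soy and Milk from M + G. This separation holds for reads on the 53 members only. The 6 ribosomal protein rows with only an Ensembl identifier, described below, are mostly small subunit genes and were not counted. With them counted, the large subunit shares of Milk 3 and, narrowly, of Soy 2 were below that of Sow unnumbered. The means were 54.9% ± 0.14 (SD, n = 2), 56.2% ± 0.55, 56.0% ± 0.33, 56.6% ± 0.70 and 57.3% ± 0.35 (n = 3 each), so that the differences of Sow from the formula groups exceeded their SDs and those among Milk, Soy and M + E2 did not. Of the sum of squares of this share 77.3% lay between diets without Sow 2, more than for the level. Milk 2 and Soy unnumbered had 6.48 and 6.24% of reads on members, on either side of Sow 3 at 6.33%. Their large subunit shares were 56.7 and 55.7%, and that of Sow 3 was 54.8%. Sow 2, with the highest level at 9.34%, had the lowest large subunit share, 54.4%. Whether the share follows the level was not tested.

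**Figure D5:**
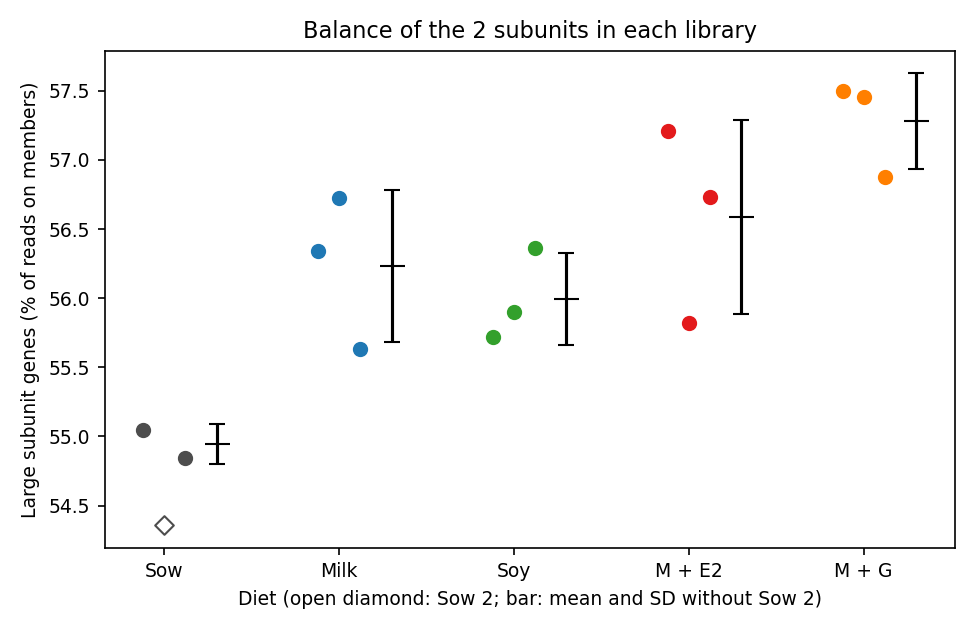
Points give the percent of member reads that fell on large subunit genes in each library (axis from about 54 to 58%), with mean and SD beside each diet and Sow 2 as an open diamond. Sow lies at 54.4 to 55.0% and the formula diets at 55.6 to 57.5%.

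In fitted changes the same offset appeared as a stronger difference in small subunit members against Sow. The medians of large and small subunit were −0.97 and −1.09 in M + E2, −0.88 and −1.14 in M + G, −0.78 and −0.88 in Soy, and −0.40 and −0.57 in Milk. The large subunit median was thus less negative by 0.12, 0.26, 0.10 and 0.17. Over all the alternatives run it stayed above the small subunit's in these 4 comparisons, with a lowest difference of 0.04 and a highest of 0.37. Against Milk the difference of medians was 0.01 for M + E2, 0.02 for M + G and −0.02 for Soy. As a score over chosen genes it carries no test, and the quartiles of the subunits overlapped in every comparison. In the libraries themselves the large minus small difference of median log2 CPM ranged from −0.43 to 0.17. Sow, at −0.17 and −0.35, lay below M + E2 (0.17, −0.07 and −0.15) and M + G (0.12, −0.06 and 0.04) and overlapped with Milk and Soy.

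The members were also grouped by role, and no group was tested against the others. RPL5 and RPL11, which with 5S rRNA form the particle that can restrain MDM2, had 2455 and 2220 CPM and 1368 and 1199 CPM in Sow, and 902, 1126 and 1557 CPM and 557, 680 and 870 CPM in M + E2. Their log2 fold changes were −1.04 and −0.94, near the median of all members. RPLP0 and RPLP2 of the stalk, which recruits elongation factors, had values of −0.94 and −1.10. RPLP0 had 2218 and 2134 CPM in Sow, 1090, 1088 and 1378 CPM in M + E2 and 1177, 1621 and 1318 CPM in M + G. It was 2009, 2419 and 1052 CPM in Milk, where the range contained Sow. For 7 of 9 listed proteins at the exit tunnel the values in M + E2 ran from −1.36 (RPL17-C18orf32) to −0.69 (RPL4). For 6 of 7 listed proteins of the mRNA path and head the median was −1.01. The 5 measured members of 9 listed genes mutated in Diamond-Blackfan anemia, an inherited failure of red cell production, had a median of −1.04, with RPL35A lowest. All of these were lower in 4 of 4 comparisons with Sow. RPS6, listed alone as the phosphorylated member, was nearer 0 than the median of the members in all 4, at −0.49 in M + E2 and 0.01 in Milk.

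The members differed in how far they followed the shared shift. Their SD over 15 libraries ran from 0.34 to 0.99 (RPL35A) on the log2 scale, with a median of 0.67. The ratio of the highest to the lowest library reached 11.55-fold in RPL10A, whose lowest library was Soy 3. RPL3, which reaches toward the peptidyl transferase centre, RPL37 and RPL29 were among those that varied least (SD 0.35, 0.36 and 0.36), and RPL35A, RPS21, RPS16, RPS15A and RPL17-C18orf32 most. The SD within Milk, Soy and M + G, which share no library with M + E2 or Sow, had a Pearson r of −0.58 and a Spearman rho of −0.56 with the log2 fold change of M + E2 against Sow over the 53 members. Members with more spread between piglets on a diet were thus lower in that comparison. The points share libraries and the fit, and the value is a description across genes, which are not replicates. A member that follows the shared shift more tends to have both a larger SD and a larger fall. The value is thus not separate from that shift. Mean log2 CPM had no such relation (r = 0.04, rho = −0.02).

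Members with many reads and with few behaved alike in direction. RPL6, with the most reads of the large subunit, had 2643 and 2222 CPM in Sow and 1098, 1534 and 1833 CPM in M + E2. Its log2 fold change, −0.78, was nearer 0 than the median of the members. RPL36A-HNRNPH2, the row with fewest reads, is named for a readthrough of a ribosomal gene into its neighbour and had 54.2 and 54.7 CPM in Sow and 17.8, 26.6 and 29.9 CPM in M + E2 (−1.20, SE 0.40, adjusted p = 0.068). Ribosomal protein genes have many processed pseudogene copies, and how reads that matched several places were counted is not given in the sources used here, so the level of a single member is uncertain.

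Some ribosomal proteins stood outside the rule. A set of 6 rows carried only an Ensembl identifier, which the reference table names RPL14, RPLP1, RPS2, RPS24, RPS25 and RPS29, and held 0.374 to 0.936% of reads. They were all lower in M + E2 against Sow, with a median of −1.03. RPS29, with 856 and 791 CPM in Sow and 236, 282 and 401 CPM in M + E2, fell by 1.49 on the log2 scale (adjusted p = 0.045, edgeR's quasi-likelihood test). RPLP1, the third stalk protein, differed by −0.44 (SE 0.27). Adding these rows to the members left the median of M + E2 against Sow at −1.04. For the gene lists from here on, the shares over all genes tested in M + E2 against Sow were 5.0% called and 33.8% at an unadjusted p below 0.05. At that p the shares were 23.6, 15.0 and 12.1% for M + G, Soy and Milk against Sow. Against Milk they were 17.7, 2.60 and 2.44% for M + E2, M + G and Soy. Of 10 listed paralogs and related proteins, 6 had a row and 2 were called, both lower in M + E2: RPS27L at −1.53 (adjusted p = 0.041) and RPL7L1 at −1.01 (adjusted p = 0.041). RACK1, a scaffold on the small subunit's head, had 1702 and 1573 CPM in Sow and 1400, 1307 and 1574 CPM in M + E2, a difference of −0.27 (adjusted p = 0.45). In the other comparisons 0 of these 6 were called (edgeR's quasi-likelihood test), with 3, 1 and 0 at an unadjusted p below 0.05 for M + G, Soy and Milk against Sow and, against Milk, 2 for M + E2 and 0 for the other two.

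Other genes of translation did not all follow. From a list of 18 translation factors and further transcripts with a 5′ pyrimidine tract, 14 were tested and 13 were lower in M + E2 against Sow, with a median of −0.65 and 0 called (edgeR's quasi-likelihood test, 7 at an unadjusted p below 0.05). EIF3E (−1.18, SE 0.40, adjusted p = 0.068) and EIF3H (−1.02, SE 0.41), subunits of the initiation factor eIF3, differed most. EEF1A1, the factor that delivers tRNA, had 12610 and 11025 CPM in Sow and 6519, 6477 and 9120 CPM in M + E2 (−0.75). EEF2, the factor that moves the ribosome and whose mRNA is known to carry the same tract, had 1880 and 1958 CPM in Sow and 2019, 1815 and 1993 CPM in M + E2, and it stayed between 1680 and 2074 CPM in all 15 libraries. In the other comparisons with Sow the same test called 0 genes of this list, with 6 (M + G), 2 (Soy) and 1 (Milk) at an unadjusted p below 0.05. Against Milk it called 0, with 0 at an unadjusted p below 0.05, and EEF1G (−0.55 in M + E2), EEF1B2 (−0.61 in M + G) and NPM1 (−0.53 in Soy) differed most.

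Genes that build ribosomes moved in both directions. Of 24 listed, 20 were tested, 12 were lower and 8 higher in M + E2 against Sow, with a median of −0.13. SBDS helps to release the factor eIF6, the product of EIF6, from the new large subunit. SBDS fell by 1.14 on the log2 scale, the only call of this list (adjusted p = 0.048, edgeR's quasi-likelihood test). EIF6 (−0.89, adjusted p = 0.045) passed adjusted p but not 2-fold. NCL, encoding nucleolin, had 245 and 262 CPM in Sow and 572, 508 and 468 CPM in M + E2 (0.96, adjusted p = 0.040), also short of 2-fold. UBTF, which activates rRNA gene transcription, had 65.5 and 68.4 CPM in Sow and 126, 145 and 125 CPM in M + E2 (0.91, adjusted p = 0.038). NCL had a value of 1.02 in M + G against Sow (adjusted p = 0.12). Outside M + E2 against Sow, edgeR's quasi-likelihood test called 0 genes of this list. At an unadjusted p below 0.05 there were 7 (M + G), 5 (Soy) and 3 (Milk) against Sow, and against Milk there were 5 (M + E2), 1 (M + G) and 0 (Soy).

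Of 12 listed genes of growth control, 11 were tested, 7 were higher in M + E2 against Sow and 0 were called in any comparison (edgeR's quasi-likelihood test, 6 at an unadjusted p below 0.05 in M + E2 against Sow, 1 in Soy against Sow, 2 in M + E2 against Milk and 0 in the others). MTOR and LARP1 encode the kinase and the binding protein of the 5′ tract. MTOR had 38.9 and 43.7 CPM in Sow (24.8 in Sow 2) and 90.6, 91.0 and 72.6 CPM in M + E2 (0.97, SE 0.38, adjusted p = 0.096). Within Milk it had 33.8, 39.1 and 89.4 CPM, and in Soy 45.5 (unnumbered), 79.0 and 90.4 CPM, so its higher values came in Milk 3, Soy 2 and Soy 3, where the members were low. LARP1 had 157, 115 and 310 CPM in Milk. These are long transcripts and those of the members are short. No transcript lengths or measures of RNA quality were used here, and their part in the levels was not tested.

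Mitochondrial ribosomal proteins and nuclear genes of oxidative phosphorylation are other sets of genes, with a smaller share of reads than the members. In M + E2 and M + G against Sow the median was −0.80 and −0.55 for 65 tested mitochondrial ribosomal proteins and −1.24 and −0.78 for 53 tested oxidative phosphorylation genes. In Soy and Milk it was −0.37 and −0.26 for the first set and −0.50 and −0.43 for the second. In M + E2 against Sow 17 and 25 of them were called, all lower, where 2 of 53 members and 5.0% of all genes tested were. In M + E2 against Milk 42 and 42 had an unadjusted p below 0.05, against 2 members and 17.7% of all genes, with medians of −0.61 and −0.81 beside −0.57 for the members. In M + E2 the first set took 0.214 to 0.234% of reads and the second 0.512 to 0.591%, while the members took 3.25 to 5.0%. In Soy these shares were 0.209 to 0.332%, 0.509 to 1.01% and 2.75 to 6.24%. The difference between these sets was not tested.

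Cell type markers also differed between groups. The summed level of 3 myoid markers was 201 and 380 CPM in Sow (159 in Sow 2), 586, 2179 and 515 CPM in Milk, 295 (unnumbered), 409 and 2888 CPM in Soy, 307, 478 and 414 CPM in M + E2 and 387, 1512 and 448 CPM in M + G. It was high in Milk 2 and M + G 2, where members were high, and in Soy 3, where they were low. The Sow ranges of the sums that follow include Sow 2. The sum of 3 endothelial markers was 190 to 315 CPM in Sow, 359 to 900 in Milk, 309 to 1003 in Soy, 473 to 646 in M + E2 and 504 to 595 in M + G. The sum of 6 Sertoli markers was 1627 to 2035 CPM in Sow and 2822 to 2939 CPM in M + E2, and that of 4 Leydig markers with a row was 19176 to 19817 CPM in Sow and 12898 to 13782 CPM in M + E2. The sums of 3 germ cell markers with a row (137 to 157 CPM in Sow, 202 to 257 in M + E2), 4 macrophage markers (65.3 to 92.6 and 120 to 132) and 3 epithelial markers with a row (164 to 203 and 53.9 to 88.3) also did not overlap between these groups, whereas those of 3 T cell markers (11.6 to 14.7 and 6.92 to 16.3) and 3 erythroid markers (496 to 575 and 238 to 595) did. Other diets overlapped with M + E2 in 4 of these 5 sums. The Leydig sum was 10337 to 22046 CPM in Milk and the Sertoli sum 1546 to 2913 CPM in M + G. In Soy the germ cell sum was 133 to 232 CPM and the macrophage sum 89.0 to 195 CPM. The epithelial sum stayed above M + E2, at 129 to 184 CPM in Milk, 149 to 307 in Soy and 91.6 to 337 in M + G. Lack of overlap was common between Sow and M + E2. Of 15634 single genes, 4479 had every M + E2 library below both Sow libraries and 5259 had every one above them. No marker with a row was at 0 in every library. In whole testis, fewer cells of a type with much ribosomal mRNA and less of it in each cell cannot be told apart, and the part of these markers in the members' levels was not tested.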

How the data were processed

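The authors made libraries from testis mRNA, sequenced 36 bp single-end reads, trimmed them and mapped them with CLC Genomics Workbench 20.01, first to a curated pig gene library and then to the Ensembl genome build 11.1. They deposited the count of reads on each gene in each library, without normalization. The strand setting is not given in the sources used here. No column was left unused.

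Groups came from the labels. Libraries were scaled by TMM and tested with edgeR 4.0.16 (quasi-likelihood F test, R 4.3.3) in 1 fit of 5 groups with 14 libraries, Sow 2 being left out as in the study, after filterByExpr with a minimum count of 10. Genes were called at an adjusted p (Benjamini-Hochberg over 15634 genes) of 0.05 or less and at least 2-fold. The SE is the log2 fold change divided by the root of F. CPM are scaled over 15 libraries, and log2 CPM used a prior count of 1. DESeq2 1.42.0 was an alternative. The fit was tested on simulated data. The members, lists and tests were chosen with earlier results of these data known. Named members were those with the largest and smallest values in each comparison, those called, those in fixed role groups and those with most or fewest reads. From the other lists the genes called, or else those of largest change, were named, and EEF1A1, EEF2, RACK1, NCL, UBTF, EIF6, LARP1 and RPLP1 after their values were seen. Positions are those of RefSeq for Sscrofa11.1, matched by symbol (53 of 53 members).

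The labels number libraries alike in several groups. Deviations from group means of same-numbered libraries correlated at 0.23, 0.51 and 0.42 between Milk and M + G. Between Milk and M + E2 they correlated at −0.06, −0.09 and −0.34. For numbers 2 and 3 they correlated at −0.48 and 0.21 between Milk and Soy, and at −0.41 and −0.02 between M + G and Soy. Between M + E2 and M + G the values were 0.12, 0.06 and −0.15. Between M + E2 and Soy they were −0.02 and −0.15 for numbers 2 and 3. The main fit did not pair libraries by number, and a block on the number was run only as an alternative. Sequences and promoter motifs were not analysed here. The results of some single members are not reported here.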

Additional observations from a re-analysis of the deposited data

Results flagged for a closer look

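Sow 2, which was left out of the main comparisons, had 9.34% of its reads on the members. This was above the 7.03 and 6.33% of the other Sow libraries and above every library of the other diets. It was singled out as a signal in a library that the main comparisons do not use. Groups of 3 libraries are too small for the search for single outlying libraries.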

How the results depend on the processing

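The median of the members was below 0 in all 7 comparisons under all alternatives run, and against Sow the large subunit median stayed the less negative. The number called was far less stable. For M + E2 against Sow it was 37 with all 3 Sow libraries, 28 in a fit of only the 2 groups, 28 with edgeR's exact test, 22 with DESeq2's Wald test and 1 with DESeq2 size factors, where 18.1, 12.3, 12.6, 8.50 and 4.56% of all genes were called. It ran from 0 to 41 over the left-out libraries, with Sow 2 put in where a Sow library was left out. It was 0 without each of M + E2 1, M + E2 2 and M + E2 3, without each M + G library and without Soy 2, 7 without Soy 3, 22 without Soy unnumbered, 23 without Milk 3, 4 without Milk 2 and 1 without Milk 1 (7.77, 8.49, 9.81, 6.39 and 5.50% of all genes). It was 41 with Sow 2 in place of Sow 3 and 37 in place of Sow unnumbered (21.3 and 18.4%). For M + G against Sow the numbers were 32, 25, 25 and 7 under the first 4 of these settings (10.3, 5.38, 6.48 and 2.11% of all genes). Leaving out any 1 library of the other diets gave 0 there, and the range of 0 to 34 came from Sow 2 in place of Sow 3 (34, 13.0% of all genes) or of Sow unnumbered (22, 8.32%). For M + E2 against Milk the range was 0 to 5, the latter without Milk 3 (8.04% of all genes). The median of Soy against Sow ran from −1.36 to −0.60. The diet test called 4 members with all 3 Sow libraries and 2 with DESeq2's likelihood ratio test, against 7.62 and 6.81% of all genes. The replicate block, for numbered libraries, gave medians against Milk of −0.52 for M + E2, −0.54 for M + G and −0.86 for Soy with 0 called, and changed no call. Without the block the same libraries gave −0.87 for Soy, near the −0.86 with it. That setting was added after seeing the data. Scaling moved the median of all genes by at most 0.011. The cause of these differences was not tested. With 2 Sow libraries, 32% of 50 simulated 2-fold falls among 15634 genes passed adjusted p in M + E2 against Sow. These genes were drawn from the whole table and simulated as independent of one another. The members shared a library shift, and their median SE was 0.41, against 0.30 over all genes. The 32% is thus not a rate for the members.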
